A study of Sus scrofa with 9 samples.

Results

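The interferon response genes (MX1, MX2, OAS1, OAS2, ISG15, ISG20, STAT2, EIF2AK2 and IRF7) were read in sorted blood T cells of pigs. They were chosen by name, and every array probe whose sequence accession maps to one of these pig genes was taken as a member. Of the 9 genes, 7 had such a probe, with 19 probes in all, out of 3052 genes named and 43603 probes on the array. OAS1 and ISG20 were not matched to a probe and were not analysed here.

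The arrays held RNA of CD3+CD4+CD8+ cells (called DP), CD3+CD4+ cells (the CD4 fraction) and CD3+CD8+ cells (the CD8 fraction), with 3 arrays for each of the 3 fractions. The cells were sorted from mononuclear cells of sow blood, and the RNA was amplified from 25 ng before labelling. No treatment, infection, vaccination, breed or age of the sows is given in the labels, and they do not say which arrays share a sow. The arrays are called biological replicates and carry the replicate numbers 1, 2 and 3 within each fraction. The stated comparisons set DP cells against the CD4 and the CD8 fraction.

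Interferons are secreted proteins that cells release when they sense a virus. Their receptors activate JAK kinases, which phosphorylate STAT2. In a complex with IRF9 it enters the nucleus and switches on antiviral genes in nearly every cell type, T cells included. Most of the member genes are such targets, and STAT2 and IRF7 also act in the signalling itself, so their transcripts are widely used as a readout of recent interferon exposure.

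Levels are given on a log2 scale, as the processed scanner signal relative to the 75th percentile of all probes on that array. A level of 0 is thus the signal at that percentile, and an increase of 1 is a doubling. Because probes differ in how they bind, a level can be set against the same probe on another array, not against another probe. The 75th percentile itself was 39.7, 42.5 and 19.0 signal units on DP arrays 1 to 3, 84.1, 15.2 and 28.8 on CD4 arrays and 18.4, 24.3 and 29.7 on CD8 arrays. Between 32.6% and 53.7% of probes were well above background per array. The arrays lay on 3 glass slides, of which slide 1 held a single DP array, while slides 2 and 3 each held all 3 fractions. Arrays of the same fraction correlated at r of 0.854 to 0.948 over the tested probes. CD3 and other T cell genes checked the labelled cell type. Of 6 T cell markers, 5 were above background on all 9 arrays, and CD2 was so on the 8 arrays where it had a value. CD2 had no value on DP array 2 and is missing from its sum. Summed linear levels were 136 to 254 times the 75th percentile on DP arrays, 150 to 257 on CD4 arrays and 171 to 254 on CD8 arrays.

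A gene with several probes is described by its probe of highest mean, and for the members the other probes are counted beside it. Testing needed a signal well above background throughout at least 1 fraction, that is on its 3 arrays, which held for 13 of the 19 member probes and for the described probe of 5 of the 7 genes. Differences come from limma fitted to all 16024 tested probes, with two-sided p-values adjusted over all of them by the Benjamini-Hochberg method. A difference was called at an adjusted p under 0.05. For the described probes of the members it is given with its standard error (SE) or its 95% interval.

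No member gene was called as different between DP cells and either other fraction. The number called was 0 of 5 for DP against CD4, where 0.293% of all tested probes were called, and 0 of 5 for DP against CD8, where 0.312% were called. It was also 0 of 5 for CD4 against CD8, with 0.437% of all probes called, and 0 of 5 for any difference among the 3 fractions, with 0.612% called. At an unadjusted p under 0.05 limma's count was also 0 of 5 in each of these 4 tests, where 4.84%, 6.52%, 4.54% and 6.18% of all tested probes passed in the same order. The median difference of the 5 genes was 0.15 for DP minus CD4 and 0.14 for DP minus CD8, beside -0.02 and -0.03 over all tested probes. These are bulk measurements, so fewer expressing cells and less RNA per cell cannot be told apart.

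**Figure D1:**
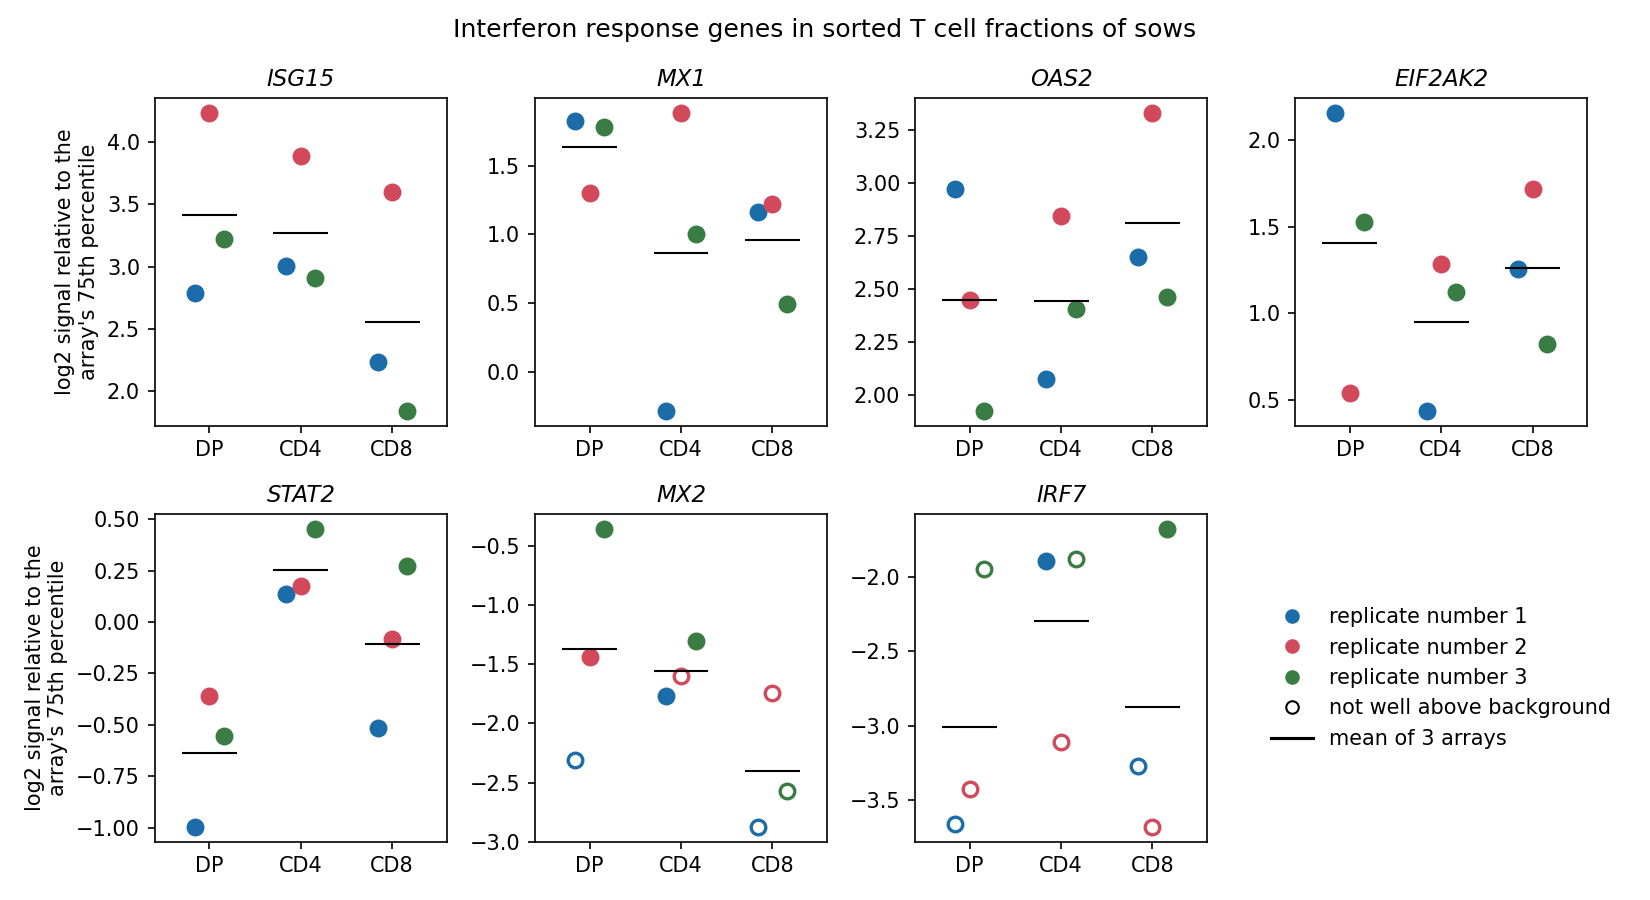
Levels of the 7 member genes (vertical axis, log2 signal relative to the array's 75th percentile) on each array of the DP, CD4 and CD8 fractions, 3 points per fraction coloured by replicate number, and a line at the mean of the 3 arrays. Open points are not well above background, and each gene has its own axis range. ISG15, MX1, OAS2, EIF2AK2 and STAT2 were measured on all 9 arrays, and MX2 and IRF7 lay near the background.

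The effectors come first, the proteins that act on viruses or on infected cells. ISG15 encodes a ubiquitin-like protein that is attached to other proteins after interferon exposure. Its level was 2.79, 4.23 and 3.22 on DP arrays 1, 2 and 3, against 3.00, 3.89 and 2.91 on CD4 arrays and 2.24, 3.60 and 1.85 on CD8 arrays. The fractions overlapped, and in each of them array 2 was the highest. The means were 3.41 ± 0.74 in DP cells, 3.27 ± 0.54 in CD4 cells and 2.56 ± 0.92 in CD8 cells (SD, n = 3 each). DP minus CD4 was 0.15 (95% interval -0.99 to 1.29, adjusted p = 1.00 by limma). DP minus CD8 was 0.85 (SE 0.53, 95% interval -0.29 to 2.00, adjusted p = 0.935 by limma). Neither neighbour in the order DP, CD4, CD8 differed beyond the spread between arrays.

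MX1 encodes a dynamin-like GTPase that blocks influenza and other RNA viruses. Its level was 1.83, 1.30 and 1.78 on DP arrays, against -0.29, 1.89 and 1.00 on CD4 arrays and 1.16, 1.22 and 0.49 on CD8 arrays. All DP arrays lay above all CD8 arrays, by a small margin between DP array 2 and CD8 array 2, whereas the CD4 arrays spanned both. Among all tested probes, 9.78% had DP and CD8 arrays that did not overlap, and MX1 was 1 of 5 members. Means were 1.64 ± 0.29 in DP cells, 0.87 ± 1.09 in CD4 cells and 0.96 ± 0.41 in CD8 cells (SD, n = 3 each). DP minus CD8 was 0.68 (95% interval -0.46 to 1.82, adjusted p = 0.995 by limma), and DP minus CD4 was 0.77 (95% interval -0.37 to 1.91, adjusted p = 1.00 by limma). DP minus CD4 was 0.19 without CD4 array 1, 1.28 without CD4 array 2 and 0.34 with normexp background correction and quantile normalization. Within slides MX1 did not keep a sign against CD4 cells, with DP minus CD4 at -0.58 on slide 2 and 1.42 on slide 3, and DP minus CD8 at 0.11 and 1.29. The low MX1 value of CD4 array 1 came from the array with the highest 75th percentile, and over the 9 arrays MX1 correlated with the log2 of that percentile at r = -0.69. A correlation this far from 0 was held by 10.2% of tested probes, and its part in the MX1 differences was not tested.

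MX2 encodes a related GTPase, known in humans for restricting HIV, and its single probe was dim. It stood at -2.31, -1.44 and -0.35 on DP arrays, against -1.77, -1.60 and -1.30 on CD4 arrays and -2.88, -1.74 and -2.57 on CD8 arrays. It was well above background on 2 of 3 DP arrays, on 2 of 3 CD4 arrays and on 0 of 3 CD8 arrays, so it was not tested. For CD8 cells only a bound can be given, taken per array from the lowest signal among probes well above background or from the MX2 signal where that was higher. That bound was -1.41, beside measured means of -1.37 in DP cells, -1.55 in CD4 cells and -2.40 in CD8 cells. DP array 1 was itself not well above background and the CD4 mean lay below the bound, so no fold is given for either.

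OAS2 encodes an enzyme that, on binding double-stranded RNA, makes short oligoadenylates that activate RNase L. Its described probe gave 2.97, 2.45 and 1.92 on DP arrays, against 2.08, 2.84 and 2.40 on CD4 arrays and 2.65, 3.33 and 2.46 on CD8 arrays. The 3 fractions overlapped, and the highest array was in CD8 cells. Means were 2.45 ± 0.52 in DP cells, 2.44 ± 0.39 in CD4 cells and 2.81 ± 0.46 in CD8 cells (SD, n = 3 each). DP minus CD4 was 0.01 (95% interval -0.90 to 0.91, adjusted p = 1.00 by limma) and DP minus CD8 was -0.37 (95% interval -1.27 to 0.54, adjusted p = 1.00 by limma). On this probe DP cells were lower within both slides, with DP minus CD4 at -0.40 on slide 2 and -0.32 on slide 3. DP minus CD8 was -0.54 on both, with a single DP array on each slide and no test. Another well detected OAS2 probe ran otherwise, as given further below.

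EIF2AK2 encodes PKR, a kinase that binds double-stranded RNA and halts translation by phosphorylating an initiation factor. Its only probe gave 2.16, 0.54 and 1.53 on DP arrays, against 0.44, 1.28 and 1.12 on CD4 arrays and 1.26, 1.72 and 0.82 on CD8 arrays. DP cells held the highest array and nearly the lowest, so the DP arrays spanned almost the whole range. Means were 1.41 ± 0.82 in DP cells, 0.95 ± 0.45 in CD4 cells and 1.26 ± 0.45 in CD8 cells (SD, n = 3 each). DP minus CD4 was 0.46 (95% interval -0.60 to 1.52) and DP minus CD8 was 0.14 (95% interval -0.91 to 1.20), neither of them called. The sign depended on the slide that held the arrays. On slide 2 DP minus CD4 was -0.75 and DP minus CD8 was -0.95, whereas on slide 3 they were 0.75 and 0.71, with a single DP array on each slide and no test.

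Of the transcription factors, STAT2 carries the interferon signal to the nucleus together with IRF9. Its described probe gave -0.998, -0.36 and -0.56 on DP arrays, against 0.14, 0.18 and 0.45 on CD4 arrays and -0.51, -0.08 and 0.27 on CD8 arrays. Every DP array lay below every CD4 array, a separation seen in 10.1% of all tested probes and in 1 of the 5 members, while DP and CD8 arrays overlapped. The CD4 arrays lay fully apart from the CD8 arrays for 0 of 5 members and 8.02% of all tested probes. Means were -0.64 ± 0.33 in DP cells, 0.26 ± 0.17 in CD4 cells and -0.11 ± 0.39 in CD8 cells (SD, n = 3 each). DP minus CD4 was -0.89 (SE 0.44, 95% interval -1.86 to 0.07, adjusted p = 1.00 by limma), so the separation was not called. With normexp background correction and quantile normalization DP minus CD4 was -0.30 and DP minus CD8 was -0.08. It was of the same sign on both slides that held both fractions, at -0.54 on slide 2 and -0.85 on slide 3. DP minus CD8 was -0.53 (95% interval -1.49 to 0.43), and -0.06 and -0.83 on those slides.

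IRF7 encodes the factor that drives the genes of interferon alpha during infection, and its level could not be measured in most arrays. Its probe gave -3.66, -3.43 and -1.95 on DP arrays, against -1.89, -3.11 and -1.88 on CD4 arrays and -3.27, -3.68 and -1.68 on CD8 arrays. It was well above background on CD4 array 1 and CD8 array 3 only, and on 0 of 3 DP arrays, so neither a fold nor a test is given. The lowest signal well above background ranged from -3.42 to -0.79 between arrays, which is the limit for such a transcript.

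The genes with several probes did not give a single pattern. MX1 had 5 probes, of which 2 were tested, and the second tested probe correlated with the described one at r = 0.44 over 9 arrays. That probe gave -1.82, 0.16 and -0.54 on DP arrays, against -1.63, -0.78 and -1.78 on CD4 arrays and -1.88, -1.18 and -2.24 on CD8 arrays, so that array 2 was the highest in every fraction, as for ISG15 and not as for the described MX1 probe. Some number was the highest in all 3 fractions for 22.6% of all tested probes. The 3 untested MX1 probes were above background on 4, 1 and 2 arrays.

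The 4 other OAS2 probes were all tested and correlated negatively with the described probe, at r of -0.47 to -0.15. A probe above background on all 9 arrays gave 0.72, 0.61 and 1.57 on DP arrays, against 0.47, 1.38 and 2.28 on CD4 arrays and 0.08, 0.82 and 0.11 on CD8 arrays. Its DP minus CD8 was 0.63 and its DP minus CD4 was -0.41. Another probe above background on all 9 arrays had -0.25 and -0.59, and none of these differences was called. A dim probe among the 4 stood at -1.01, -0.87 and -1.16 on DP arrays, against -1.57, -0.43 and -0.80 on CD4 arrays and -3.11, -3.68 and -1.36 on CD8 arrays. Its CD8 arrays were mostly at the background, with 1 of 3 well above it, and its DP minus CD8 difference of 1.70 was not called (adjusted p = 0.643 by limma). The value of -3.68 on CD8 array 2 was shared by other dim probes of that array, IRF7 included, and marks the lower end of its scale.

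STAT2 had 5 probes, 4 of them tested, and the others correlated with the described probe at r of -0.28 to 0.44. For the other tested probes DP minus CD4 was -1.11, -0.23 and 0.13. The first of these was above background on 0 of 3 CD8 arrays and has no value against them, and for the other two DP minus CD8 was -0.37 and 1.01. The last of them was lower on every CD8 array, at -0.08, -0.90 and -1.19 on DP arrays, against -1.48, 0.20 and -1.27 on CD4 arrays and -1.66, -1.80 and -1.75 on CD8 arrays. It was the only 1 of the 13 tested member probes on which the arrays of a fraction lay apart from all others, and it was well above background on 1 of 3 CD8 arrays. Over all tested probes 7.48% separated a fraction in this way. Counting all 13 probes, limma called 0 in every comparison, with unadjusted p under 0.05 for 0 probes in DP against CD4, 1 in DP against CD8 and 2 in CD4 against CD8, where 4.84%, 6.52% and 4.54% of all tested probes passed. The probes behind these counts were the dim OAS2 probe described above, in both comparisons with CD8, and a STAT2 probe above background on 0 of 3 CD8 arrays. They were tested because of the fractions in which they were high, so the counts do not speak for the members. Which transcript parts these probes read was not examined, as no sequence of them was used here.

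The replicate numbers were examined next, since arrays of the same number may share a sow or a day of work. In a fit of fraction and number together, number was called for 0 of 5 members, and for 0.206% of all tested probes. At an unadjusted p under 0.05 limma counted 1 of 5 members, ISG15, where 21.6% of all probes passed. ISG15 was higher on all 3 arrays numbered 2 than on each of the 6 others, with means of 3.91 ± 0.32 on the number 2 arrays and 2.67 ± 0.52 on the others (SD over arrays). The lowest array numbered 2 exceeded the highest other array by 0.37. Within the fractions, array 2 exceeded the next array by 1.01 in DP, 0.89 in CD4 and 1.36 in CD8 cells.

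In that fit ISG15 gave F = 9.99 for the number (limma's unadjusted p = 0.00381, adjusted p = 0.105), so the difference did not pass the adjustment. Number 2 minus number 1 was 1.23 (SE 0.32, adjusted p = 0.277 by limma) and number 2 minus number 3 was 1.25 (SE 0.32, adjusted p = 0.0895 by limma). Numbers 1 and 3 differed by 0.02. Such a separation of the arrays of a number was common on these arrays. It was seen for 1 of 5 members and for 22.9% of all tested probes, and with number 2 above all others for 1.65% of them.

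None of the other described members passed even the unadjusted threshold for the replicate number. The number's F was 0.66 for MX1 (adjusted p = 0.720 by limma) and 0.04 for EIF2AK2 (adjusted p = 0.981 by limma), and the adjusted p was 0.516 for OAS2 and 0.624 for STAT2. MX1 was highest on array 1 in DP cells and on array 2 in CD4 and CD8 cells. EIF2AK2 was lowest on array 2 in DP cells and highest on array 2 in the other fractions. Fraction within number was called for 0 of 5 members, beside 1.32% of all tested probes, and only ISG15 had an unadjusted p under 0.05 there, of 0.0492 (adjusted p = 0.547 by limma), as did 9.08% of all tested probes.

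**Figure D2:**
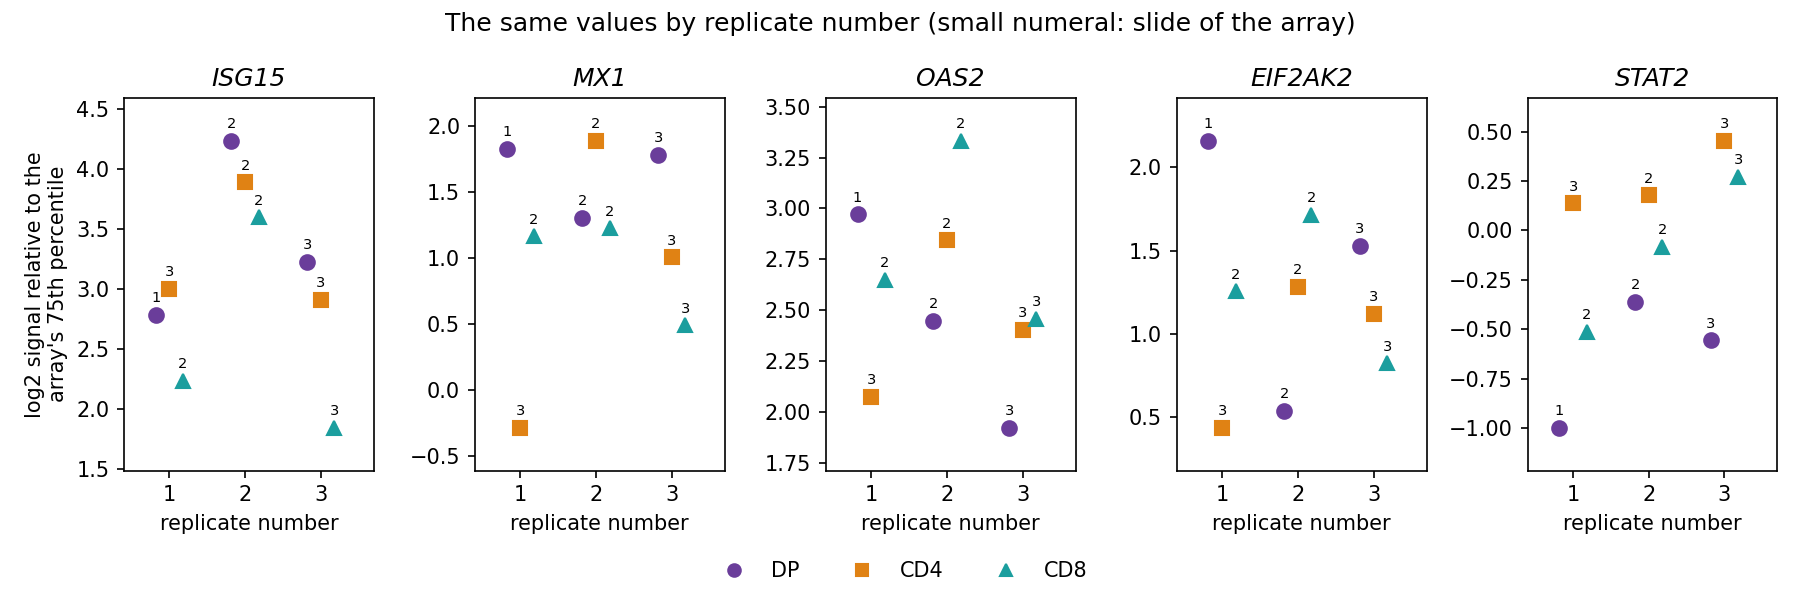
Levels of the 5 tested members (vertical axis, log2 signal relative to the array's 75th percentile) by replicate number 1, 2 and 3 (horizontal axis), with a symbol for each fraction and a small numeral for the slide of the array. The 3 ISG15 values at number 2 lie above the 6 others, and the values of MX1, OAS2, EIF2AK2 and STAT2 overlap between numbers.

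In the member genes, arrays of the same number and arrays of the same fraction lay about equally far apart. The mean absolute difference between arrays, over the 5 genes, was 0.687 for the 9 pairs of the same number, 0.684 for the 9 pairs of the same fraction and 0.701 for the other pairs. Which of the first 2 was smaller turned when DP array 1, DP array 3, CD4 array 1 or CD8 array 1 was left out, with same number minus same fraction at -0.044, -0.052, -0.080 and -0.046. Over all tested probes the same measure was 0.732, 0.818 and 0.856, so there the arrays of a number were the closer ones. The members closer by number were ISG15 at 0.618 for the same number and 0.928 for the same fraction and OAS2 at 0.514 and 0.597. That is 2 of 5, or 40%, against 64.2% of all tested probes. The other 3 were closer by fraction, at 0.904 for the same number and 0.762 for the same fraction in MX1, 0.801 and 0.747 in EIF2AK2, and 0.596 and 0.386 in STAT2.

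Replicate number and slide largely coincided. All arrays numbered 2 were on slide 2 and all numbered 3 on slide 3, while those numbered 1 were on slides 1, 3 and 2 for DP, CD4 and CD8 cells. Scan time followed the slide. CD8 arrays 1 and 2 shared slide 2, and there ISG15 was 1.36 higher on array 2. CD4 arrays 1 and 3 shared slide 3, and ISG15 differed by 0.09. With slide added to the fit of fraction and number, the F of ISG15 for the number was 1.72 (adjusted p = 0.532 by limma). Within the slides that held all 3 fractions, ISG15 was higher in DP than in CD4 cells by 0.34 on slide 2 and 0.27 on slide 3, and higher in DP than in CD8 cells by 1.32 and 1.38, each from 1 to 2 arrays per fraction and with no test.

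The ISG15 pattern also rests on the numbers of the scanner files. The authors' table of processed values carries the CD8 arrays under other numbers, with the scanner files 3, 1 and 2 in its columns 1, 2 and 3. By the table's numbering the F of ISG15 for the number was 1.76 (adjusted p = 1.00 by limma), and 0 of 5 members had the arrays of a number apart from all others, as 4.57% of all tested probes did. For the number so defined limma called 0 of 5 members and 0% of all tested probes, with an unadjusted p under 0.05 for 2.65% of them. The names of the scanner files of the same number share a tag, which the labels do not explain. The sources used here do not say which numbering is right.

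Markers of other blood cells were read beside the ISG15 values, as summed linear levels in multiples of the 75th percentile. The 7 monocyte and granulocyte genes matched to a probe summed to 1.25 to 6.49 on arrays numbered 1, 0.739 to 2.16 on those numbered 2 and 2.04 to 4.14 on those numbered 3. Within fractions array 2 had the lowest sum in DP and CD8 cells and the highest in CD4 cells, at 2.16 against 2.01 and 2.04. The part of these transcripts in the ISG15 values was not tested. CD163, FCGR1A, S100A8 and S100A9 stood well above background on no array. By fraction the sums were 0.739 to 3.93 on DP, 2.01 to 2.16 on CD4 and 1.09 to 6.49 on CD8 arrays. The 4 B cell genes summed to 0.479 to 2.94 on DP, 1.11 to 2.37 on CD4 and 5.62 to 12.5 on CD8 arrays, with BLNK on no array above background. Of the plasmacytoid dendritic cell list only GZMB, a granzyme of cytotoxic cells as well, was matched to a probe. It stood at 2.76 to 16.8 on arrays numbered 1, 13.4 to 241 on those numbered 2 and 0.856 to 4.41 on those numbered 3. It was the highest on array 2 in each fraction, like ISG15 (adjusted p = 0.0578 by limma for the number), and its part in the ISG15 values was not tested.

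The described probes of the members did not move as a single block over the 9 arrays. EIF2AK2 and MX1 correlated at r = 0.71, EIF2AK2 and OAS2 at r = 0.57, and MX1 and OAS2 at r = 0.37. ISG15 correlated at r = 0.39 with MX1, 0.15 with OAS2 and -0.05 with EIF2AK2. STAT2 ran opposite to EIF2AK2 (r = -0.57) and MX1 (r = -0.53), and was at r = -0.03 with ISG15 and -0.14 with OAS2. With fraction means taken out, r ran from -0.53 for EIF2AK2 and STAT2 to 0.70 for EIF2AK2 and MX1. ISG15 and OAS2 then stood at 0.47, and OAS2 and STAT2 at -0.33. These correlations describe 9 arrays that share slides and fractions. Probes of the same gene also ran apart, with other OAS2 probes at r of -0.47 to -0.15 to the described one. A low r between genes thus cannot be told apart from differences between probes.

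The genes most like the mean of the 5 members were searched among 1502 other named genes by Pearson's r over 9 arrays. They were ALG5 at r = 0.94, MAN1A1 at 0.91, NAXD and ATP5G3 at 0.89, ITM2B at 0.88, GDI2 at 0.86, and AP3M1 and PSMG1 at 0.85. With the fraction means taken out they were CD96 at r = 0.98, PCYOX1L at 0.97, ALG5 at 0.96, VARS, ATP5G3 and ASCC1 at 0.95, and MYC and ANKRD28 at 0.94. None of these genes is on the pathway lists described next. They were picked as the highest of 1502 over 9 arrays, so their r is high in part through the search. The mean also joins members that ran opposite, such as STAT2 and EIF2AK2, and shared regulation was not tested.

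The rest of the interferon pathway was read from 5 lists of 96 genes. Of these, 46 were matched to a probe by its accession, called on the array below, and 26 were tested. The unmatched genes may still have probes that were not named. Over these 26 genes DP cells were higher than CD4 cells in 1 and lower in 0, none was called for DP against CD8, and none for replicate number. The unadjusted p was under 0.05 in 3 genes for each of these 3 tests, where 4.84%, 6.52% and 21.6% of all tested probes passed in the same order. The median difference was 0.03 for DP minus CD4 and 0.22 for DP minus CD8. A list gene is given by its probe of highest mean alone. Of the genes named below, IFNGR1 had 4 probes, GBP1 had 3, and USP18, TRIM21, TLR3 and ZBP1 had 2 each, and their other probes were not examined.

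Among the ligands, 2 of 4 genes on the array were tested, and the gene that was called was IFNG, which encodes interferon gamma, the interferon of activated T and natural killer cells. Its level was 1.85, 1.21 and 1.28 on DP arrays, against -3.09, -2.45 and -2.99 on CD4 arrays and 1.81, 0.91 and 0.05 on CD8 arrays. CD4 arrays lay far below all others, also within slides 2 and 3, and 1 of 3 was above background. The arrays of a fraction lay apart from all others for 7.48% of all tested probes. IFNG was 4.29 higher in DP than in CD4 cells as fitted (SE 0.52, adjusted p = 0.00589 by limma). With the 2 CD4 values that were not well above background set to the lowest signal that was so on their arrays, DP minus CD4 was 3.34, with no test. IFNG was tested because of the DP and CD8 fractions, in which it was high. The fitted difference, its SE and its adjusted p rest in part on CD4 values that were not well above background. DP minus CD8 was 0.52 and not called. The genes of interferon beta and epsilon (IFNB1 and IFNE) did not stand well above background anywhere. IFNA1, an interferon alpha gene of a family of near-identical copies and named here after its values were seen, was above background on all 9 arrays, at -0.41, -1.83 and -1.03 on DP arrays, against -0.32, -0.37 and 0.73 on CD4 arrays and 0.51, 0.28 and 0.76 on CD8 arrays. The DP arrays lay below all CD8 arrays, and DP minus CD8 was -1.60 (SE 0.52, adjusted p = 0.416 by limma). DP and CD8 arrays did not overlap for 9.78% of all tested probes.

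Of the receptors and kinases, 6 of 8 genes on the array were tested and 0 were called. IFNGR2, the signalling chain of the interferon gamma receptor, stood at 2.08, 2.00 and 2.15 on DP arrays, against 3.39, 4.18 and 3.50 on CD4 arrays and 2.50, 2.41 and 1.42 on CD8 arrays. DP and CD4 arrays did not overlap, as for 10.1% of all tested probes, and DP minus CD4 was -1.61 (SE 0.41, adjusted p = 0.171 by limma). IFNGR1, its binding chain, was lowest on array 3 in every fraction, at 0.25, 0.98 and -0.46 on DP, 0.54, 0.46 and -0.15 on CD4 and 0.91, 0.86 and -0.86 on CD8 arrays, with an adjusted p of 0.170 for the number by limma.

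Of the factors and regulators, 6 of 7 genes on the array were tested and 0 were called. USP18 encodes the protease that removes ISG15 from proteins and itself responds to interferon. It stood at 1.67, 2.80 and 3.66 on DP arrays, against 2.07, 3.17 and 3.15 on CD4 arrays and -0.24, 3.60 and 2.07 on CD8 arrays. Its 3 arrays numbered 1 lay below all 6 others, but barely, with CD4 array 1 at 2.069 and CD8 array 3 at 2.074. The arrays of a number lay apart from all others for 22.9% of all tested probes, and for 2 of the 26 tested list genes. The adjusted p of USP18 for the number was 0.118 by limma.

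Of the sensors of foreign nucleic acid, 3 of 10 genes on the array were tested and 0 were called. TMEM173, which encodes the DNA sensing adaptor STING, had a DP minus CD4 difference of 0.81, and MYD88, the adaptor of Toll-like receptors, one of 0.63, both with an adjusted p of 1.00 by limma. Of the further effectors, 9 of 17 genes on the array were tested and 0 were called. GBP1, a GTPase induced by interferon gamma, stood at 4.37, 3.87 and 4.48 on DP arrays, against 2.11, 3.30 and 2.82 on CD4 arrays and 4.29, 4.27 and 3.57 on CD8 arrays. All DP arrays lay above all CD4 arrays, and DP minus CD4 was 1.50 (SE 0.40, adjusted p = 0.219 by limma). DP and CD4 arrays did not overlap for 10.1% of all tested probes. TRIM21, an antibody receptor inside the cell, had a DP minus CD8 difference of 1.18 (SE 0.46, adjusted p = 0.636 by limma). Across the lists 22 genes were above background on all 9 arrays and 9 on none, among them TLR3, ZBP1, BST2, CXCL9, CXCL11, IFI44 and OASL.

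**Figure D3:**
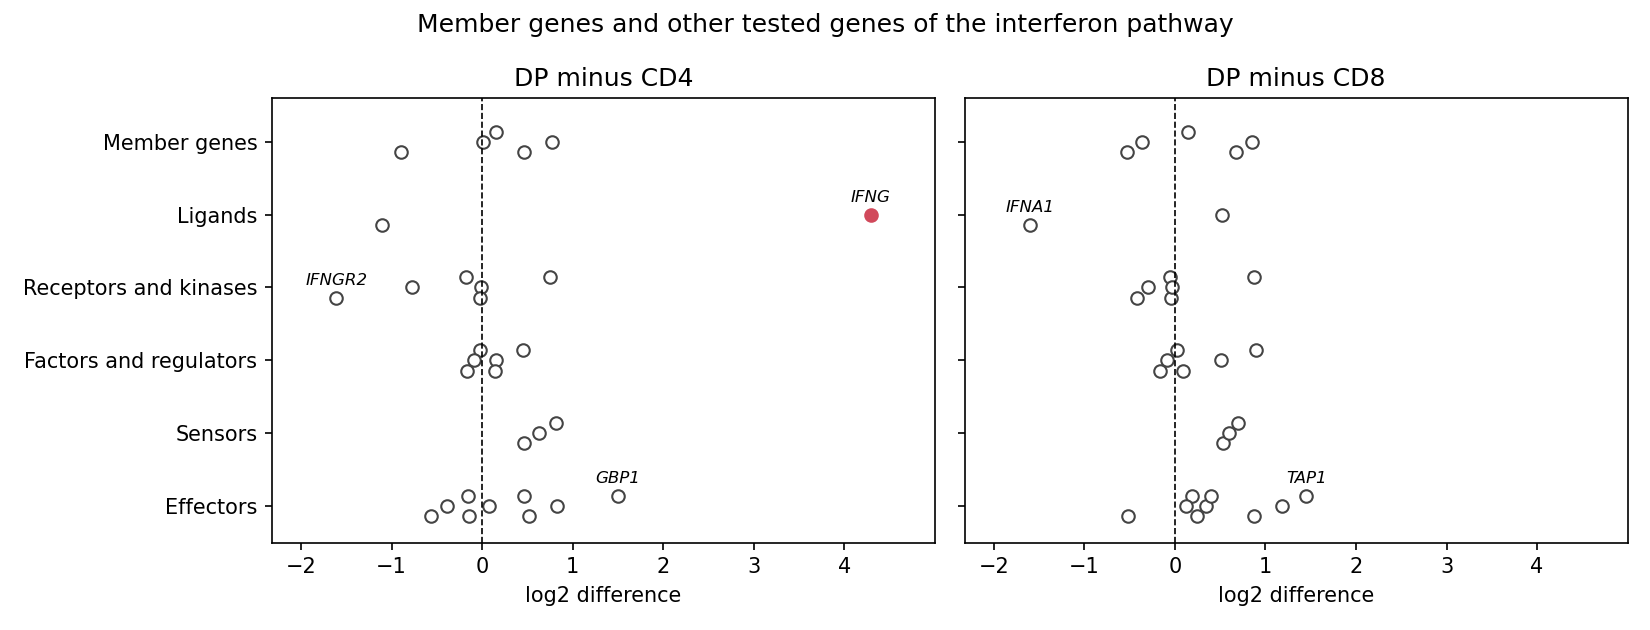
Log2 differences of DP minus CD4 (left) and DP minus CD8 (right) on the horizontal axis, a point per tested gene, in rows for the 5 tested members and the 5 pathway lists, with filled points for adjusted p under 0.05 by limma. IFNG for DP minus CD4 is the only filled point, at a fitted 4.29 with 2 of its 3 CD4 values not well above background, the outermost genes are named, and the members lie within the range of the lists.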

How the data were processed

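Per the file headers, the deposited scanner files come from Agilent Feature Extraction (version 11.0.1.1, a single colour), and their processed signal is an intensity on a linear scale, corrected for background and not normalized between arrays. The authors' table of processed values is deposited on a log2 scale, with all 9 columns of the same distribution. Which program made it is not stated in the labels. Control spots and 1 to 12 outlier spots per array were left out, spots of a probe were averaged, and log2 of the signal minus the array's 75th percentile was taken. No spot was saturated. The number of arrays limits the precision.

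Probes were named through unversioned accessions in an annotation of Sscrofa11.1, which named 6730 probes (15.4%). Its coordinates were not used. Fits used lmFit and eBayes with a variance trend in limma 3.58.1 (R 4.3.3), were tested on simulated data, and covered all 9 arrays, without a block for the fraction differences. Called means an adjusted p under 0.05. Alternatives were another percentile set, quantile normalization, normexp with an offset of 50, the authors' table, no filter on dim probes, any probe of a gene, replicate and slide blocks, the table's numbering and leaving out each array. Slide added to the fit of fraction and number was chosen after seeing the data.

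The members and lists were chosen with earlier results of these data known. All members with a probe are named. From each pathway list the called genes are named or, where none was called, the 2 genes of smallest p. A factor and a marker that these rules take in are not reported here. Genes of like pattern are the 8 of highest r. Undetected sensors and effectors, GZMB and the undetected markers were named after their values were seen. Labels do not say that arrays came from separate sows, so p-values measure the spread between arrays, which may in part be technical. Figures were drawn with Python 3.11.15, numpy 2.4.6, pandas 2.3.3 and matplotlib 3.10.9.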

Additional observations from a re-analysis of the deposited data

How the results depend on the processing

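Of 356 values recomputed under the alternatives, 17 changed sign and none crossed the threshold, and the number of members called stayed at 0 in every test under every alternative run. Of the sign changes, 13 were in differences of members, none of them called before or after, and 4 in the distance between arrays, and the cause was not tested. DP minus CD4 of OAS2, at 0.01 as reported, was -0.0164 with the percentile over probes detected on all arrays, -0.0455 with quantile normalization, -0.0242 with normexp and quantile normalization, -0.0475 in the authors' table and -0.35 with the slide as a block, and ran from -0.26 to 0.27 when single arrays were left out. DP minus CD8 of EIF2AK2 was -0.20 with the slide block and ran from -0.23 to 0.58 when single arrays were left out. DP minus CD4 of ISG15 ran from -0.26 without DP array 2 to 0.46. The F of ISG15 for the replicate number ran from 1.72 to 9.18 over its 16 alternatives, with adjusted p of 0.0602 to 1.00 by limma. The difference of the member distances, same number minus same fraction, was 0.0026 as reported and ran from -0.080 to 0.081, below 0 in 4 of 15 alternatives, each leaving out an array. With the replicate number as a block 0 members were called, and the lowest adjusted p of ISG15 for DP against CD8 over all alternatives was 0.404, by limma with that block. Over all probes the block moved the calls to 144 for DP against CD4, 83 for DP against CD8 and 110 for CD4 against CD8, against 47, 50 and 70 without it. Same-numbered arrays deviated together at r of -0.07 to 0.65, over 0.1 in 7 of 9 pairs, and 7 of 9 arrays correlated best with their own number. The median r was 0.31, against -0.14 for arrays of different number and fraction and -0.11 for the table's numbering. The deviations were taken from fraction means, so the r of differently numbered arrays is tied to that of same-numbered ones. Arrays numbered 2 shared slide 2 and arrays numbered 3 shared slide 3, so number and slide cannot be told apart there. Whether arrays of a number belong together was not tested. The labels do not pair the arrays, so the main fit had no block, and the counts with the block are given beside it. MX2, IRF7 and the dim probes of MX1, OAS2 and STAT2 lie at the limit set by background, where signal over background and not the scaling decides what can be measured.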
